A study of Mus musculus with 12 samples.

Results

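The genes that encode the pore-forming subunits of potassium channels were examined in RNA from adult mouse forebrain. They were chosen by name: every protein-coding gene whose symbol has the Kcna, b, c, d, f, g, h, j, k, n, q, s, t, u or v stem followed by a number, together with Kcnma1. The rule, set with earlier results of these data known, used no measured value and took 77 of the 56748 genes in the count table. Of these, 40 are voltage-gated, 15 are inward rectifiers, 14 are two-pore channels and 8 are opened by calcium or sodium inside the cell or belong to those families. Enough reads for a test were counted for 67 of the 77.

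The 12 libraries fall into 4 groups of 3. The group htr_V holds mice of the genotype labelled htr3a Notch KO with the valproic acid treatment, WT_V wildtype mice with the same treatment, htr the knockout without it, and WT wildtype mice without it. Valproic acid, given against epilepsy, also inhibits histone deacetylases; the series' design gives the exposure as prenatal and the knockout as conditional. The sources used here do not name the Notch gene deleted, the driver, the dose, the day of exposure, the age within adulthood or the strain. The labels do not say whether the libraries of a group came from separate animals, so the p-values measure only the spread between libraries, which may be technical. All values come from bulk tissue, in which fewer cells of a type and less RNA per cell cannot be told apart.

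Potassium channels let potassium leave the cell and so pull the membrane potential down. Two-pore channels carry the background leak that sets the resting potential, inward rectifiers hold that potential or, in astrocytes, take up potassium released by active neurons, and voltage-gated channels end the action potential and set its shape and rate. Large- and small-conductance calcium-activated channels follow calcium entry, and some subunits of the voltage-gated families are silent alone and only modify the channels of their partners.

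Total counts ranged from 16887885 to 24944681 per library, and 12.2% to 18.6% of them lay on mitochondrial genes. The forebrain identity gene Lhx2 was abundant, with 22064 counts over the 12 libraries, while the hindbrain genes Hoxb2 and Hoxb3 had none and Hoxa3 had 1. Notch1 lay between 17.6 and 21.7 CPM (counts scaled to a common library size) in htr_V, 15.2 and 18.3 in WT_V, 16.4 and 17.6 in htr and 16.6 and 20 in WT, and none of Notch1, Notch2, Notch3 and Notch4 passed the test between genotypes, so the deletion could not be checked from receptor levels. Htr3a was higher in htr than in WT (log2 fold change 1.25, edgeR adjusted p = 5.34e-05) and higher in htr_V than in WT_V (0.79, edgeR adjusted p = 0.0243, a call kept in 8 of the 12 fits that left out 1 library). One library of htr_V and one of WT_V, the third replicate of each, had 6 and 12 counts of Xist, the RNA made from the inactive X chromosome, against 5919 to 10767 in the other libraries. Both are exposed libraries, and results are therefore also given without them.

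Levels of different genes were compared per length, as CPM per kb of exon. Voltage-gated genes held 50% of the summed level of all members (48.9% to 50.8% over the libraries), inward rectifiers 31.3% (30.2% to 32.2%), two-pore genes 13.0% (12.7% to 13.8%) and the calcium- and sodium-activated genes 5.76% (5.23% to 6.20%). The makeup of the family by class therefore moved by at most a few points between any of the libraries. Within each class a few genes held most of the level.

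Among the two-pore genes the highest levels were those of Kcnk1 (33.4 CPM per kb over all libraries), a weakly conducting background channel, Kcnk2 (13.9), a stretch- and lipid-sensitive leak channel, and Kcnk12 (5.23), which gives little current by itself. The inward rectifiers were led by Kcnj4 (49.1 CPM per kb), a strong rectifier of forebrain neurons, Kcnj10 (48.6), the main inward rectifier of astrocytes, and Kcnj9 (24.1), a subunit of the channels that G protein-coupled receptors open. Kcnt1 (10.9 CPM per kb), a sodium-activated channel, Kcnma1 (7.09), the large-conductance calcium-activated channel, and Kcnn1 (4.19), a small-conductance one, led their class. Kcnh3 (36.2 CPM per kb), a subthreshold channel of forebrain neurons, and Kcnc4 (21.5), of the family that repolarises fast action potentials, were among the highest voltage-gated genes. None of Kcnk1, Kcnk2, Kcnk12, Kcnj4, Kcnj10, Kcnt1, Kcnn1 and Kcnh3 passed the test in any of the comparisons. Kcnj9, Kcnma1 and Kcnc4 did and are described below.

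**Figure D1:**
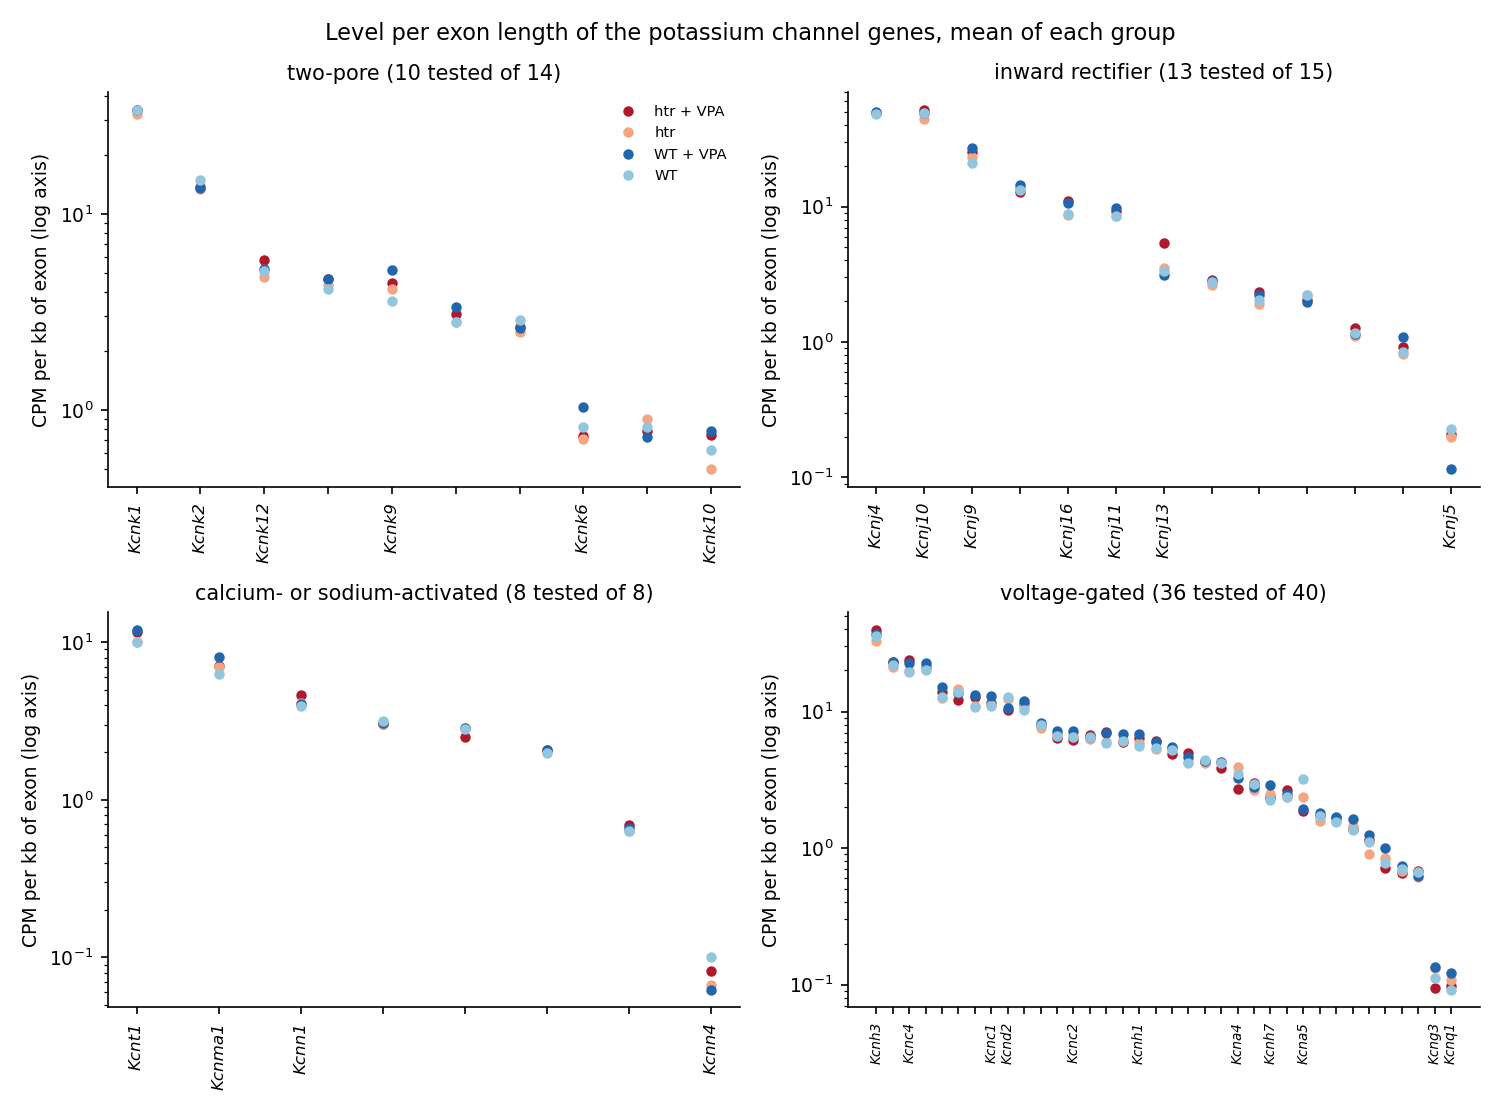
Mean level of each tested member in the 4 groups, in CPM per kb of exon on a log axis, by class, with VPA for valproic acid; each point is the mean of 3 libraries, and names are given for members described in the text. For most members the 4 points lie nearly on top of one another, while the members of one class span orders of magnitude.

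The other 10 members had too few counts for a test. Summed over the 12 libraries, Kcnh8 had 90 counts, Kcnk15 50, Kcnk7 47, Kcnv2 13, Kcnj15 and Kcnk18 11 each, Kcna10 9, Kcna7 and Kcnk16 7 each, and Kcnj1 had 1. At the lower end of the tested members stood Kcnj5 with 226 counts, Kcnn4 with 105, Kcng3 with 104 and Kcnq1 with 107, whose fold changes have wide errors.

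The summed level of all 77 members was 545, 546 and 553 CPM per kb in the htr_V libraries, 566, 553 and 552 in the WT_V libraries, 543, 512 and 490 in the htr libraries and 537, 524 and 496 in the WT libraries. Each of the 6 exposed libraries thus lay above each of the 6 unexposed ones, by as little as 545 in htr_V against 543 in htr. The sums of the inward rectifiers alone were 175, 172 and 173 CPM per kb in WT_V, against 165, 160 and 158 in WT. In the knockout they were 175, 173 and 175 in htr_V, against 174, 158 and 148 in htr, where the first htr library reached the exposed range. These sums are given as a description without a test.

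The effect of valproic acid in wildtype brain was taken from WT_V against WT. In this comparison 4 members rose and none fell: Kcnk9, Kcnj9, Kcnma1 and Kcnh7, 1 from each class. They make up 5.97% of the 67 tested members, beside 0.895% of all 17995 genes tested that passed in this comparison (0.206% higher and 0.689% lower). Across all genes falls were thus more frequent than rises in this comparison, while the 4 members called were all higher.

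Kcnk9 (ENSMUSG00000036760, chromosome 15) forms an acid-sensitive leak channel of neurons. It had 64.3, 61.1 and 66.4 CPM in WT_V, against 46.9, 46.5 and 39.8 in WT. The groups did not overlap, and the fold change was 1.44 (log2 fold change 0.53 ± 0.10, SE, edgeR adjusted p = 0.0153). Kcnj9 (ENSMUSG00000038026, chromosome 1) had 120, 116 and 112 CPM in WT_V, against 97.0, 93.8 and 76.2 in WT (0.38 ± 0.08, edgeR adjusted p = 0.0188). The third WT library was the lowest of the 6 and the groups again did not overlap.

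Kcnma1 (ENSMUSG00000063142, chromosome 14) encodes the channel that both voltage and calcium open and that shortens the action potential. It had 138, 134 and 136 CPM in WT_V, against 111, 110 and 102 in WT (log2 fold change 0.34 ± 0.07, edgeR adjusted p = 0.0155). Kcnh7 (ENSMUSG00000059742, chromosome 2), of the ether-a-go-go-related family that stabilises firing, had 46.1, 42.4 and 43.4 CPM in WT_V, against 34.6, 35.6 and 32.8 in WT (0.36 ± 0.07, edgeR adjusted p = 0.0192). In both genes the lowest WT_V library lay well above the highest WT library, and the rise was 1.27-fold for Kcnma1 and 1.28-fold for Kcnh7.

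Reads from a gene and an overlapping neighbour on the other strand cannot be told apart here, since the strand setting of the counting is not given. In the GENCODE annotation of build GRCm38 such neighbours share 5.98% of the exon bases of Kcnma1, 4.57% of Kcnh7 and 4.01% of Kcnj9. For Kcnk9 no overlapping gene was found.

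**Figure D2:**
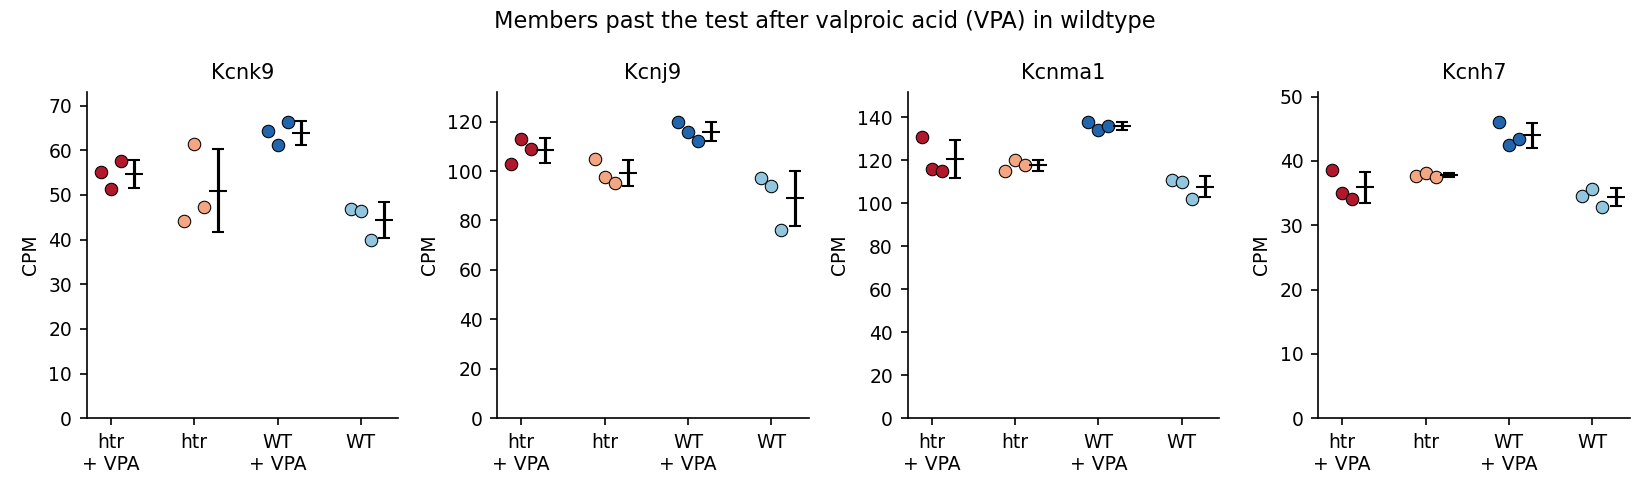
CPM of the 4 members past the test in WT_V against WT, in all 4 groups, with VPA for valproic acid; points are libraries, bars the mean and SD of 3. In each panel the 3 WT_V points lie above all 3 WT points, and the htr_V points stand lower than the WT_V points for Kcnk9, Kcnma1 and Kcnh7.

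Promoter sequences from RefSeq (build GRCm38.p6) were available for 54 of the 77 members, as 68 windows of 250 bases before to 50 bases after a start. Those of 3 of the 4 genes are shown because the genes rose in the same comparison; they lie on the minus strand at chr14:24004156-24004455 (Kcnma1), chr2:63184238-63184537 (Kcnh7) and chr1:172329273-172329572 (Kcnj9). Capitals mark the GC box (GGGCGG on either strand, so also CCGCCC), which the factor Sp1 binds, and the TATA sequence TATAAA (or TTTATA).
Kcnma1: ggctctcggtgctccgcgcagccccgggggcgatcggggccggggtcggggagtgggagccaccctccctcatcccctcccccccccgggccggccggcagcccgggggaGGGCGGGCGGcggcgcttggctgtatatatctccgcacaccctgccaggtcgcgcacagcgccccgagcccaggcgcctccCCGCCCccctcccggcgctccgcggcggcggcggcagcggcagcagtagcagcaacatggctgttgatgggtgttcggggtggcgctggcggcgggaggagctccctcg
Kcnh7: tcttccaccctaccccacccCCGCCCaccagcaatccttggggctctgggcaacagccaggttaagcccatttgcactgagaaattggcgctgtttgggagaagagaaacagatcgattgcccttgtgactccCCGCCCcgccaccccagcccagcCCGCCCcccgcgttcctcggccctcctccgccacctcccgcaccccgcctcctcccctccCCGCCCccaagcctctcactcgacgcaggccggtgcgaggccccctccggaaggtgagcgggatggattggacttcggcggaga
Kcnj9: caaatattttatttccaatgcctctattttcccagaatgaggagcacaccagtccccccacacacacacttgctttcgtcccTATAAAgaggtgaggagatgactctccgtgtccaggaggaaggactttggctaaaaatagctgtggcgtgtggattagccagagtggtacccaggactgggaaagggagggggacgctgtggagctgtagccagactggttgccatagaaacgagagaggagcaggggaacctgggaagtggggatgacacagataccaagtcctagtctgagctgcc
The window of Kcnma1 holds 3 GC boxes, a pair of which overlap, and 36 CpG dinucleotides, and that of Kcnh7 holds 4 GC boxes and 21 CpG. The window of Kcnj9 is of another kind, with no GC box, 5 CpG and 1 TATAAA. Over all member windows, 51.5% held a GC box (35 of 68), beside 35.7% of 32851 windows of all genes. TATAAA stood in 5.88% of member windows and 13.6% of all, the cAMP response element TGACGTCA in 0 of 68 and 1.79% of all, and the E-box CACGTG in 5.88% and 7.15%. Member windows had a median of 10 CpG, against 7 over all windows, and a median GC content of 61.2%, against 52.7%. The windows of all genes were not filtered for protein-coding genes, as the members were, so the shares compare unlike sets. The motif matches describe letters only.

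Over all members the wildtype values leaned toward higher levels after exposure. In WT_V against WT, 50 of 67 members had a positive log2 fold change (74.6%, beside 51.5% of all genes tested), with a median of 0.08 beside 0.01. At an unadjusted p under 0.05 there were 18 higher and 2 lower members, together 29.9% of the members beside 14.2% of all genes (6.55% higher and 7.61% lower). In 18 members the lowest WT_V library lay above the highest WT library, and in 3 the highest WT_V library lay below the lowest WT library. That is 26.9% and 4.48% of the members, while 9.84% and 10.9% of all genes tested separated in these ways.

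The next smallest p was that of Kcnc1, a channel of fast-spiking neurons. It had 130, 124 and 118 CPM in WT_V, against 103, 102 and 104 in WT (log2 fold change 0.27 ± 0.07, edgeR adjusted p = 0.055). By class, positive fold changes were found for 28 of 36 voltage-gated genes, 9 of 13 inward rectifiers, 7 of 10 two-pore genes and 6 of 8 calcium- or sodium-activated genes. The medians of the log2 fold changes were 0.13, 0.04, 0.10 and 0.05 in that order.

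The call for these genes rested on few libraries. Without the third WT library, or without the first WT_V library, none of the 4 passed, without the second WT library 1 did (Kcnk9), and without the Xist-lacking libraries 1 did (Kcnma1). Kcnj9 was also lost without the second WT_V library and Kcnk9 without the third, and all 4 stayed positive in every one of these fits (Kcnk9 between 0.45 and 0.57, Kcnj9 between 0.28 and 0.45, Kcnma1 between 0.30 and 0.36, Kcnh7 between 0.32 and 0.38 when 1 library was left out).

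In the knockout, valproic acid was examined as htr_V against htr. No member passed edgeR's test, with 11 of 67 at an unadjusted p under 0.05 (8 higher and 3 lower, 16.4% of members beside 14.9% of all genes, of which 7.2% were higher and 7.75% lower). Over all genes tested, edgeR called 0.0556%. DESeq2 called 1 of the 67 members, beside 1.07% of all genes by the same tool, so that its share of members was near its share of all genes; limma-voom called 0. In 11 members the lowest htr_V library lay above the highest htr library and in 5 the reverse held, that is 16.4% and 7.46% of the members, beside 9.88% and 10.3% of all genes.

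The smallest p belonged to Kcna4, whose fast-inactivating channel sits in axons. It had 12.8, 13.1 and 13.7 CPM in htr_V, against 20.8, 17.9 and 18.2 in htr (log2 fold change -0.52 ± 0.12, edgeR adjusted p = 0.0627). Its groups did not overlap. It was the member that DESeq2 called, and it also passed edgeR's test without the third WT library and without the third WT_V library, neither of which is in this comparison. Its levels were 16.2, 16.9 and 13.8 CPM in WT_V, against 16.9, 13.5 and 19.9 in WT, where the groups overlapped.

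Kcnk10, a leak channel opened by stretch and lipids, had 6.19, 6.57 and 6.95 CPM in htr_V, against 3.91, 4.55 and 4.66 in htr (0.59 ± 0.15, edgeR adjusted p = 0.085). Kcnh3 had 232, 221 and 226 CPM in htr_V, against 192, 186 and 189 in htr (0.26 ± 0.08, edgeR adjusted p = 0.127). In both, each htr_V library lay above each htr library. Kcnc4 (0.26 ± 0.08, edgeR adjusted p = 0.142) and Kcnj13 (0.60 ± 0.18, edgeR adjusted p = 0.128) complete the 5 smallest p-values.

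The 4 members that rose in wildtype gave other values in the knockout. They were picked by their wildtype values, so smaller values in the other genotype can follow from that choice alone. Kcnk9 had 55.1, 51.4 and 57.5 CPM in htr_V, against 44.2, 61.5 and 47.2 in htr (log2 fold change 0.10 ± 0.10, edgeR adjusted p = 0.683), so that the second htr library lay above all 3 htr_V libraries. Kcnma1 had 131, 116 and 115 CPM in htr_V, against 115, 120 and 118 in htr (0.03 ± 0.07, edgeR adjusted p = 0.852). Kcnh7 had 38.6, 35.0 and 34.0 CPM in htr_V, against 37.7, 38.1 and 37.5 in htr (-0.08, edgeR adjusted p = 0.683). Kcnj9 had 103, 113 and 109 CPM in htr_V, against 105, 97.5 and 95.1 in htr (0.13, edgeR adjusted p = 0.446). In each of the 4 genes the exposed and unexposed knockout libraries overlapped.

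Whether the response to valproic acid differs between the genotypes was asked with the interaction. No member passed edgeR's test of it, and 0% of all genes did. The smallest unadjusted p among members was that of Kcnh7 (log2 difference of the responses, knockout minus wildtype, -0.43 ± 0.11, edgeR adjusted p = 0.833). Kcnma1 followed with -0.31 ± 0.09, Kcnk9 with -0.43 ± 0.14, Kcnj13 with 0.70 ± 0.25 and Kcnc2 with -0.28 ± 0.10, all at the same edgeR adjusted p of 0.833. At an unadjusted p under 0.05 there were 2 members with a larger and 11 with a smaller value in the knockout, together 19.4% of members beside 5.97% of all genes (3.15% larger and 2.83% smaller). DESeq2 and limma-voom each called 0. A difference between the genotypes was thus not shown for any single member with 3 libraries a group.

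**Figure D3:**
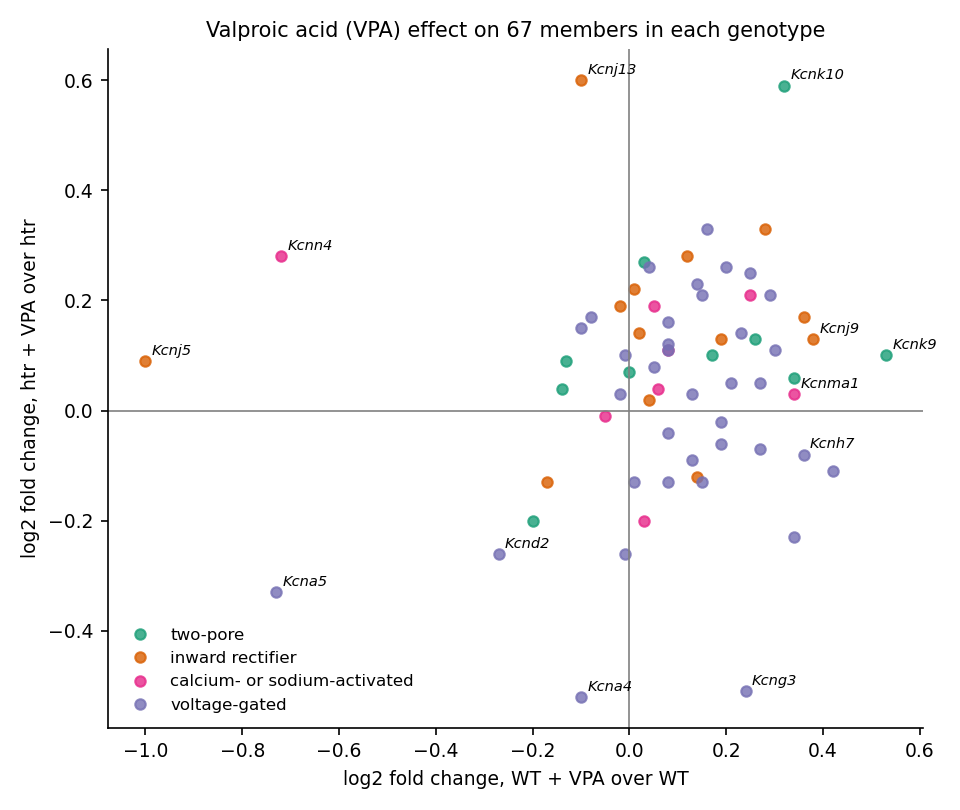
Log2 fold change with valproic acid (VPA) in the knockout, htr_V over htr (vertical axis), against that in wildtype, WT_V over WT (horizontal axis), for the 67 tested members, coloured by class; each point is 1 gene. The upper right quadrant holds 36 points and the lower left 7, and Kcnk9, Kcnj9, Kcnma1 and Kcnh7 lie far to the right at small vertical values.

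These 2 comparisons share no library. In both genotypes 36 members were higher after exposure and 7 were lower, 14 were higher in wildtype and lower in the knockout, and 10 were the reverse. The share with the same direction was 64.2% of members and 62.7% of all genes tested, and the share higher in both was 53.7% of members and 33.0% of all genes. Of the two-pore genes 7 of 10 were higher in both genotypes, of the inward rectifiers 8 of 13, of the calcium- or sodium-activated genes 5 of 8, and of the voltage-gated genes 16 of 36. Among the voltage-gated genes 12 were higher in wildtype and lower in the knockout.

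With the effect of valproic acid averaged over both genotypes, 12 members passed the test, 9 higher and 3 lower. That is 17.9% of the 67, beside 5.99% of all genes tested (2.12% higher and 3.87% lower). Positive fold changes were found for 52 of 67 members (77.6%, beside 52.4% of all genes), with a median of 0.09 beside 0.01. By class, 2 two-pore genes, 2 inward rectifiers, 1 calcium-activated gene and 4 voltage-gated genes rose, and 3 voltage-gated genes fell.

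Of the two-pore genes, Kcnk10 and Kcnk9 rose. Kcnk10 had 6.19 to 7.42 CPM in the 6 exposed libraries, against 3.91 to 5.78 in the 6 unexposed ones, with no overlap (log2 fold change 0.45 ± 0.10, 1.37-fold, edgeR adjusted p = 0.0126). In wildtype alone it had 7.42, 6.38 and 6.73 CPM in WT_V, against 5.63, 5.02 and 5.78 in WT (0.32 ± 0.14, edgeR adjusted p = 0.307). Kcnk9 averaged 0.31 ± 0.07 over the genotypes (edgeR adjusted p = 0.0125). Over all 10 tested two-pore genes the averaged log2 fold changes ranged from -0.20 to 0.45, and 7 were positive.

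Of the inward rectifiers, Kcnj9 rose by an average of 0.26 ± 0.05 (log2, edgeR adjusted p = 0.00912), the smallest adjusted p of any member. Kcnj16, whose subunit joins that of Kcnj10 in astrocytes, had 51.9, 36.9 and 41.0 CPM in htr_V, against 38.7, 35.3 and 29.1 in htr, and 39.6, 40.2 and 45.7 in WT_V, against 32.8, 36.2 and 34.2 in WT (0.30 ± 0.08, edgeR adjusted p = 0.0335). Kcnj10 had 308, 265 and 266 CPM in htr_V, against 228, 253 and 242 in htr, and 252, 258 and 290 in WT_V, against 271, 251 and 271 in WT (average 0.11 ± 0.05, edgeR adjusted p = 0.218). So exposed and unexposed libraries separated for Kcnj10 in the knockout and overlapped in wildtype, where Kcnj16 separated.

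Astrocyte markers stood slightly higher on average in the exposed libraries, with overlapping sums. Of 10 markers, none of them at 0, all 10 had a positive averaged fold change and 0 passed, with a median of 0.12. Their summed level was 6653 to 8336 CPM in htr_V, 6734 to 7737 in WT_V, 6294 to 7105 in htr and 6298 to 6841 in WT. The htr_V library with the highest sum, the first, was also the highest for Kcnj10 and Kcnj16. It had the highest mitochondrial share of any library, 18.6%, and without it the averaged effect of Kcnj16 did not pass. Of the unexposed libraries, the third htr library had the highest sum, 7105 CPM, and the lowest Kcnj16, 29.1 CPM. The part of astrocyte content in the values of Kcnj16 was not tested.

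Kcnma1 was the calcium-activated gene that passed (average 0.19 ± 0.05, edgeR adjusted p = 0.0186). Of the 4 voltage-gated genes that rose, Kcnc4 and Kcnh1 are described here. Kcnc4 had 77.3, 85.4 and 90.1 CPM as lowest, median and highest of the exposed libraries, against 64.9, 71.7 and 83.3 of the unexposed ones (0.23 ± 0.06, edgeR adjusted p = 0.0189).

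Kcnh1, of the ether-a-go-go family, had 45.1, 48.7 and 52.2 CPM, against 36.8, 42.4 and 46.9 (0.21 ± 0.06, edgeR adjusted p = 0.0345). Of the 6 exposed libraries, 5 lay above every unexposed library for Kcnc4, and 4 for Kcnh1.

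The 3 members that fell, Kcnd2, Kcna4 and Kcna5, are all voltage-gated. Kcnd2 forms the dendritic A-type current and Kcna4 a fast-inactivating axonal current, while Kcna5 forms a delayed rectifier. Kcnd2 had 45.6, 54.5 and 59.8 CPM in htr_V, against 68.4, 64.6 and 58.6 in htr, and 55.5, 58.7 and 49.6 in WT_V, against 62.4, 62.5 and 72.1 in WT. Its effect was nearly the same in both genotypes, -0.26 ± 0.09 in the knockout and -0.27 ± 0.09 in wildtype, and -0.26 ± 0.06 on average (1.2-fold lower, edgeR adjusted p = 0.0194).

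Kcna4 averaged -0.31 ± 0.08 (1.24-fold lower, edgeR adjusted p = 0.0315), with most of the difference in the knockout. Kcna5 had 4.21, 5.18 and 6.68 CPM in htr_V, against 7.49, 7.57 and 5.14 in htr, and 4.05, 6.96 and 5.46 in WT_V, against 7.20, 9.71 and 10.5 in WT. Its average was -0.53 ± 0.15 (1.44-fold lower, edgeR adjusted p = 0.0414). In wildtype the groups did not overlap for Kcna5 (-0.73 ± 0.21, edgeR adjusted p = 0.0925), and in the knockout they did.

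**Figure D4:**
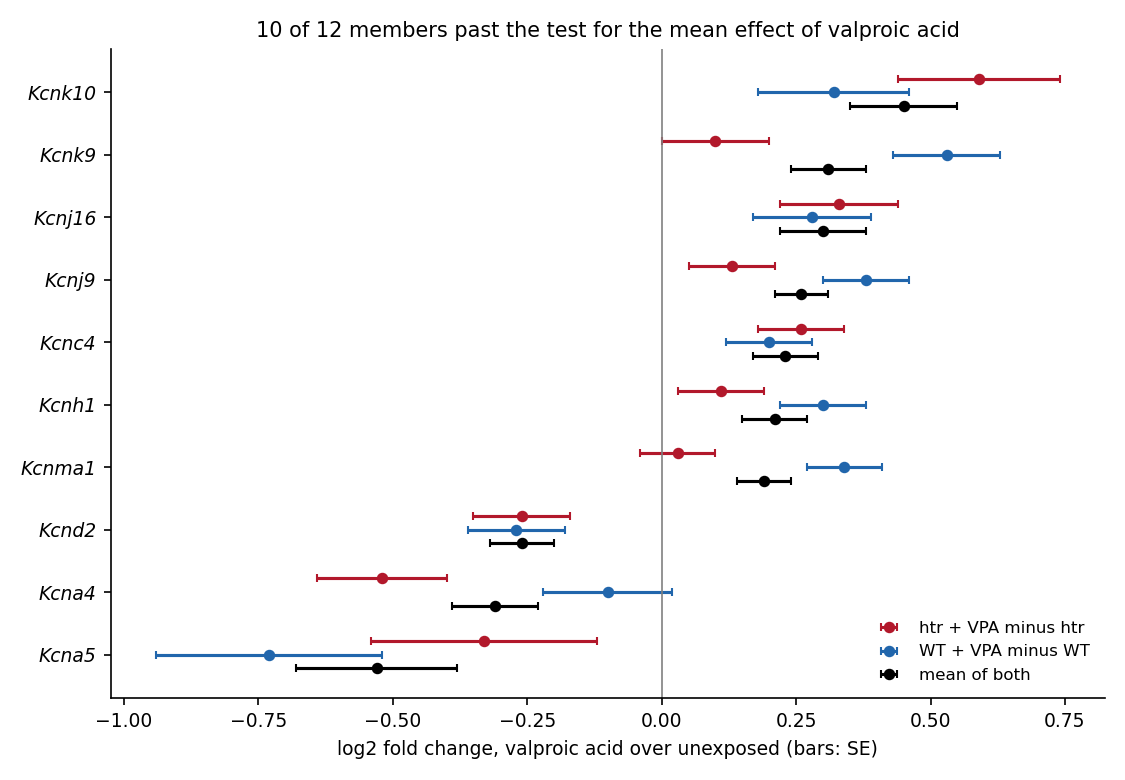
Log2 fold change with valproic acid (VPA) of 10 of the 12 members past the test for the averaged effect, in the knockout (htr_V minus htr), in wildtype (WT_V minus WT) and as the mean of both, on the log2 scale with the SE as bars. The upper genes, which rose, lie right of 0 on average and the 3 lowest left of it; for Kcnk9 and Kcnma1 the wildtype point is farther from 0 than the knockout point, for Kcna4 the knockout point is.

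Striatal projection neuron markers moved with the same exposure. Of 16 markers, none at 0, all 16 had a negative averaged fold change, with a median of -0.47. Of these, 9 passed (56.2%, beside 5.99% of all genes). Their summed level was 1404 to 1705 CPM in htr_V and 1289 to 1465 in WT_V, against 1552 to 2348 in htr and 2043 to 2146 in WT. The forebrain samples thus differed in striatal marker RNA by exposure, most plainly in wildtype, where the ranges did not overlap. Of 12 markers of cortical and hippocampal excitatory neurons, 9 had a positive averaged fold change (median 0.11). Past the test were 2 higher and 2 lower (33.3%, beside 5.99% of all genes). This list, which includes Foxp2 and Bcl11b, was not checked for genes that striatal neurons also express. The part of these shifts in the channel values was not tested.

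The averaged calls also leaned on particular libraries. Without the third WT library 4 of the 12 passed, Kcnj9, Kcnk10 and Kcnk9 among them, and these 4 passed in each of the 12 fits that left out 1 library. Kcnma1 and Kcnd2 passed in 10 of those 12 fits, Kcnc4 in 8, Kcnj16 in 6, Kcnh1 and Kcna4 in 5 each and Kcna5 in 4. Leaving out the third WT_V or the third htr_V library left 7 each, and leaving out the first htr_V or the third htr library left 8 each. Without both Xist-lacking libraries 3 passed (Kcnd2, Kcnj9 and Kcnma1), and with Xist as a term in the fit 1 did. That 1 was Kcnj9, which passed in all 21 alternative fits run.

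The knockout without exposure, htr against WT, moved no member past the test. Of the 67 members, 1 had an unadjusted p under 0.05 (1.49%, beside 3.13% of all genes), and DESeq2 and limma-voom called 0. That was Kcnk10, with 3.91, 4.55 and 4.66 CPM in htr, against 5.63, 5.02 and 5.78 in WT (log2 fold change -0.33, edgeR adjusted p = 1). Kcna5 (-0.43), Kcnk9 (0.20), Kcnj9 (0.16) and Kcnma1 (0.13) came next, all at an edgeR adjusted p of 1. Of all genes tested, 0.0389% passed. Positive and negative fold changes were about equally frequent among the members, 36 and 31, and 3 members separated without overlap, 2 higher and 1 lower, beside 3.58% and 3.81% of all genes.

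After exposure, htr_V against WT_V, again no member passed edgeR's test, in a comparison in which 0.05% of all genes did. DESeq2 called 1 member, Kcnj13, beside 0.139% of all genes by the same tool, and limma-voom 0. At an unadjusted p under 0.05 there were 1 higher and 10 lower members, together 16.4% of members beside 7.44% of all genes (4.01% higher and 3.42% lower). In 11 members the highest htr_V library lay below the lowest WT_V library and in 2 the reverse held, that is 16.4% and 2.99% of the members, beside 6.23% and 6.96% of all genes. Among the voltage-gated genes 26 of 36 were lower in the exposed knockout, with a median log2 fold change of -0.09, beside 0.00 over all genes. This comparison and that of WT_V with WT share the WT_V libraries, so the values of a gene in both are not independent.

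Kcnh7 had the smallest p among the lower members, with 38.6, 35.0 and 34.0 CPM in htr_V, against 46.1, 42.4 and 43.4 in WT_V (log2 fold change -0.30 ± 0.07, edgeR adjusted p = 0.289). Kcnc2, a channel of fast-spiking interneurons, had 44.8, 44.8 and 42.8 CPM in htr_V, against 55.2, 51.6 and 48.5 in WT_V (-0.23 ± 0.07, edgeR adjusted p = 0.417). Kcnc1 had 102, 115 and 110 CPM in htr_V, against 130, 124 and 118 in WT_V (-0.19 ± 0.07, edgeR adjusted p = 0.508). The groups overlapped for none of these 3 genes. Kcnk6, a two-pore gene of low level, had 3.13, 3.26 and 2.77 CPM in htr_V, against 4.09, 4.5 and 4.33 in WT_V (-0.50 ± 0.18, edgeR adjusted p = 0.515), and its groups did not overlap either.

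Averaged over both treatments, the knockout moved no member past the test, beside 0.05% of all genes called. At an unadjusted p under 0.05 there were 2 members, Kcnj13 and Kcnk6 (2.99%, beside 4.42% of all genes), and DESeq2 and limma-voom each called 0. Of the voltage-gated genes 29 of 36 were lower and 7 higher in the knockout, with a median of -0.05. That is 19.4% higher, beside 49.8% of all genes with a median of 0.00. At an unadjusted p under 0.05 there were 0 of the 36. In htr against WT 22 of the 36 were higher (median 0.02), and in htr_V against WT_V 10 were (median -0.09).

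Kcnj13 (ENSMUSG00000079436, chromosome 1), an inward rectifier of the choroid plexus and retinal pigment epithelium, had the smallest p of any member between the exposed groups. It had 7.73, 6.38 and 6.38 CPM in htr_V, against 4.38, 3.44 and 4.03 in WT_V (log2 fold change 0.79 ± 0.18, 1.72-fold, edgeR adjusted p = 0.148). In the unexposed groups it had 5.18, 4.32 and 3.95 CPM in htr, against 3.42, 5.19 and 4.22 in WT. The htr_V libraries were above the 9 others, which overlapped.

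Markers of choroid plexus epithelium were measured beside it. Their summed level was 3928, 4230 and 3479 CPM in htr_V, against 2384, 1811 and 3520 in WT_V, and 2618, 2490 and 2607 in htr, against 1828, 2810 and 2279 in WT. Of the 14 markers, none at 0, all 14 were higher in htr_V than in WT_V (median log2 fold change 0.62), and 1 passed the test, Cldn2 (0.94 ± 0.17, edgeR adjusted p = 0.0431), a call kept in 4 of the 12 fits that left out 1 library. The third WT_V library held a marker sum of 3520 CPM, inside the htr_V range. Its Kcnj13, 4.03 CPM, lay between the 4.38 and 3.44 of the other WT_V libraries. The part of choroid plexus in the values of Kcnj13 was not tested. Kcne2, an auxiliary subunit of the same epithelium, gave 0.58 ± 0.25 (edgeR adjusted p = 0.638).

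A second limit applies to Kcnj13 in particular. In the same annotation 49.1% of its exon bases, 623 bases, also lie in exons of Gigyf2 on the other strand, and over the libraries Kcnj13 had 1233 counts, against 11875 for Gigyf2.

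**Figure D5:**
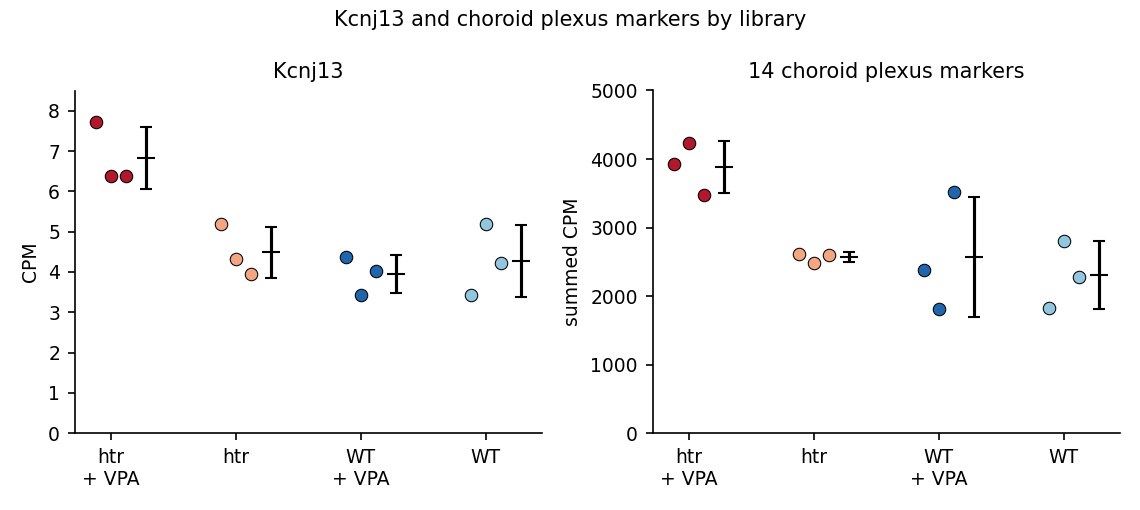
CPM of Kcnj13 (left) and summed CPM of the 14 choroid plexus markers (right) by library in the 4 groups, with VPA for valproic acid; points are libraries, bars the mean and SD of 3. For Kcnj13 the 3 htr_V points, from 6.38 to 7.73, are above all others, while on the right 1 WT_V library, at 3520, reaches into the htr_V range.

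Pore-forming subunits are joined by auxiliary subunits that set their traffic and gating. Of 27 such genes listed, 26 were in the table and 22 could be tested. In WT_V against WT, 1 rose: Kcnab3, a beta subunit of the Kcna channels, with 38.1, 33.9 and 35.9 CPM in WT_V, against 27.4, 29.0 and 27.6 in WT (log2 fold change 0.36 ± 0.09, edgeR adjusted p = 0.0412). Without any single WT or WT_V library this call was lost (edgeR adjusted p of up to 0.208). In the averaged effect of valproic acid Kcnab3 (0.26 ± 0.06, edgeR adjusted p = 0.0134) and Abcc8 rose and Kcnab1 fell, 3 of 22 or 13.6%, beside 5.99% of all genes.

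Abcc8 encodes the sulfonylurea receptor that completes the ATP-sensitive channel with Kcnj11. It had 19.9, 21.1 and 21.6 CPM in htr_V, against 14.7, 16.2 and 11.5 in htr, and 21.6, 20.3 and 23.1 in WT_V, against 18.1, 18.8 and 14 in WT (average 0.46 ± 0.08, edgeR adjusted p = 0.00359). Each exposed library lay above each unexposed one. Its pore partner Kcnj11 gave an average of 0.16 ± 0.07 (edgeR adjusted p = 0.175).

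Kcnab1, the beta subunit that speeds inactivation of Kcna channels, had 60.7, 80.7 and 81.7 CPM in htr_V, against 114, 92.3 and 99.4 in htr, and 78.8, 83.2 and 64.6 in WT_V, against 102, 113 and 110 in WT (average -0.48 ± 0.08, edgeR adjusted p = 0.00591). Here each exposed library lay below each unexposed one. Abcc8 and Kcnab1 passed in all 21 alternative fits run of the averaged effect, and Kcnab3 in 19 of them. No auxiliary subunit passed edgeR's test in htr_V against htr, htr against WT, htr_V against WT_V, the averaged knockout effect or the interaction. In htr_V against htr the smallest p was that of Abcc8 (0.55 ± 0.12, edgeR adjusted p = 0.0593), and in htr_V against WT_V that of Dpp10, a subunit of the Kcnd channels (-0.27, edgeR adjusted p = 0.41).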

How the data were processed

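The 12 RNA-seq libraries of adult mouse forebrain form 4 groups of 3. Per the labels' protocols, RNA was extracted with a column kit, depleted of ribosomal RNA and made into libraries with an NEBNext Ultra kit; the submitters' processing notes name HISAT2 and GRCm39 (mm39). For the counting program, annotation release and strand setting, the sources used here say nothing. The authors deposited raw counts per Ensembl gene, with no normalization, for 56748 genes. Symbols came from the GENCODE annotation of GRCm38 and a gene name table for 52073 identifiers, which hold 99.51% of the counts; exon lengths came from the same annotation.

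Counts were analysed with R 4.3.3, edgeR 4.0.16, limma 3.58.1 and DESeq2 1.42.0, and Python 3.11.15. The filterByExpr function with the 4 groups kept 17995 genes, TMM factors were 0.93 to 1.02, and edgeR's quasi-likelihood model (robust, group means, no further terms) took in all 12 libraries, at a common coefficient of variation of 0.0898. The 7 comparisons used two-sided tests, and p-values were adjusted by Benjamini-Hochberg over the 17995 genes, with the threshold at 0.05. "Called" and "past the test" mean an adjusted p under 0.05. SE is that of the log2 fold change, and SD and n refer to 3 libraries. CPM values use TMM-scaled library sizes. The method was tested on simulated data. The smallest change simulated was larger than that of any member past edgeR's test as reported, so recovery of changes of their size was not tested.

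Named were members past the test in any comparison, the 5 smallest p-values of each pairwise comparison and of the interaction, and the 3 highest levels per length of each class; not every value of these is printed, and some genes are not reported here. The members and gene lists were chosen with earlier results of these data known. Other fits changed the size factors, count filter, tool, libraries or terms.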

Additional observations from a re-analysis of the deposited data

How the results depend on the processing

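Of the fold changes of single genes that were recomputed under the other settings, 1 reversed its direction: that of Kcnma1 in htr_V against htr, 0.03 as reported -0.03 without the first htr_V library and up to 0.07 with another library left out, past the test in none of these fits. The members past the test in WT_V against WT numbered 4 as reported, 8 with no count filter, 1 without both libraries lacking Xist, and 0 to 5 when 1 library was left out. In htr_V against htr the count of 0 became 2 with no count filter, 1 with DESeq2's Wald test and 1 with only the libraries compared, and 0 to 1 when 1 library was left out. In htr_V against WT_V the count of 0 became 1 with no count filter and 1 with DESeq2, and stayed 0 in every leave-one-out fit. For valproic acid averaged over both genotypes the 12 became 3 without both libraries lacking Xist, 1 with Xist as a term, and 4 to 12 when 1 library was left out. In htr against WT, the averaged knockout effect and the interaction the count was 0 in every fit. The cause of these changes was not tested.

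Of all genes, 161 were past the test in WT_V against WT, with 512 under no count filter, 333 with DESeq2, 40 without both libraries lacking Xist, 69 with Xist as a term and 14 to 225 with 1 library left out. In htr_V against htr 10 were past the test, with 391 under no count filter, 193 with DESeq2, 38 with only the libraries compared, 6 with the replicate block, 2 with Xist as a term and 2 to 162 with 1 library left out. In htr_V against WT_V 9 were, with 60, 25 and 29 under no count filter, DESeq2 and without both libraries lacking Xist, and 7 to 86 with 1 library left out. In htr against WT 7 were, with 15 under no count filter, 11 with only the libraries compared and 6 to 9 with 1 library left out. For valproic acid averaged over both genotypes 1078 were, with 298 without both libraries lacking Xist, 172 with Xist as a term and 426 to 1193 with 1 library left out. For the averaged knockout effect 9 were, with 46, 18 and 14 under no count filter, DESeq2 and without both libraries lacking Xist, and 7 to 19 with 1 library left out. For the interaction 0 were, with 5 under no count filter, 4 without both libraries lacking Xist and 0 to 1 with 1 library left out.

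Replicate numbers were checked for pairing: 18 pairs of libraries with the same number had correlated deviations between -0.0623 and 0.115, 1 of them over 0.1, beside -0.123 to 0.112 for 36 other pairs, and 7 of 12 libraries correlated best with their own number. Between htr and WT the same-number pairs gave 0.063, 0.0883 and 0.115, beside -0.099 to 0.0186 for the others. Between htr_V and WT_V they gave -0.0544, 0.0545 and 0.00248, beside -0.123 to 0.112. The check therefore does not settle whether the numbers pair libraries. With the replicate block 4 members were past the test in WT_V against WT and 12 in the averaged effect of valproic acid. These were the same members as without it. Of all genes, 115 and 876 were past the test with the block in these comparisons. The block ended the call of the auxiliary subunit Kcnab3 in WT_V against WT (edgeR adjusted p = 0.0596).

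Depth limits the 10 untested members, and members near 100 counts, such as Kcnq1 with 107, had wide errors. With 3 libraries a group, small effects can miss the threshold, so that an uncalled member is not shown to be unchanged.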

Other observations

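Pumps and cotransporters that restore potassium gradients were also measured, with 11 tested. In the averaged effect of valproic acid 3 rose and none fell (27.3%, beside 5.99% of all genes), and 10 of 11 had a positive fold change. Atp1b2, a glial beta subunit of the sodium pump, had 484, 417 and 412 CPM in htr_V, against 390, 360 and 372 in htr, and 409, 434 and 458 in WT_V, against 402, 360 and 367 in WT (0.22 ± 0.05, SE, edgeR adjusted p = 0.0199). Each exposed library lay above each unexposed one. Slc12a4, a potassium-chloride cotransporter, had 30.6, 27.4 and 29 CPM in htr_V, against 22, 23.2 and 22.2 in htr, and 25.1, 23.6 and 31.3 in WT_V, against 24.8, 25.1 and 22 in WT (0.26 ± 0.07, edgeR adjusted p = 0.0279). For Slc12a4 the groups separated in the knockout and overlapped in wildtype. Of the 12 fits that left out 1 library, Atp1b2 passed in 8 and Slc12a4 in 7, and neither passed without both libraries lacking Xist. As for Kcnj16, astrocyte markers were slightly higher on average with exposure, though their summed levels overlapped between exposed and unexposed libraries. Their part was not tested.

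None of the 4 genes of the hyperpolarization-activated cation channels, which share the fold of potassium channels, passed edgeR's test in any of the 7 comparisons. Hcn2 had 246, 225 and 230 CPM in htr_V, against 213, 187 and 180 in htr, and 197, 205 and 225 in WT_V, against 231, 212 and 193 in WT (interaction 0.29 ± 0.11, edgeR adjusted p = 0.833).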
